A study of Mus musculus and Acomys cahirinus with 25 samples.

Results

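The genes of the AP-1 and immediate early response followed here in RNA-seq libraries of healing skin wounds numbered 10. They are the 4 genes of the FOS family (Fos, Fosb, Fosl1 and Fosl2), the 3 genes of the JUN family (Jun, Junb and Jund), the related factor Atf3, the zinc finger factor Egr1 and the early response gene Ier3. They were chosen by symbol, and all 10 were found among the 24500 gene symbols counted in each of 25 libraries. AP-1 is a dimer of basic leucine zipper proteins. A JUN protein pairs with a FOS, ATF or second JUN protein, and the dimer binds short DNA sites in genes for proliferation, differentiation and matrix remodelling. Fos, Egr1 and other immediate early genes are switched on within minutes of growth factors, injury or stress, without new protein synthesis, and their RNAs are short-lived. In skin, FOS and JUN family members take part in keratinocyte differentiation and in wound closure, and tissue handling itself is known to induce them.

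The study asked which genes mark the part of a large wound where new hair follicles form. Laboratory mouse libraries came from mice wounded at 4 weeks of age and taken at post-wound day 14 (PWD14). C57BL/6J was the main laboratory mouse of the study. Spiny mouse (Acomys cahirinus) libraries came from animals 2 months old. The laboratory mouse wound was divided with a punch into wound center and wound margin, and the spiny mouse wound was taken whole.

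Wild-type laboratory mouse libraries comprised epidermis of the wound center (2 libraries) and the margin (2), and dermis of the wound center (5) and the margin (2). The K14-Cre-Twist1 dermis (2 libraries, wound center) came from mice with a conditional Twist1 allele and a Cre transgene under the keratin 14 promoter, which is active in the basal epidermis and not in dermal fibroblasts. Wild-type Twist1 mice were the controls for these, so the wild-type center dermis libraries may not all come from the same mouse stock. The spiny mouse libraries covered epidermis at PWD0 (1), 14 (2), 21 (2) and 28 (1) and dermis at PWD0 (2), 14 (1), 21 (2) and 28 (1), where PWD0 is unwounded skin. The layers of laboratory mouse wounds were separated by hand, whereas spiny mouse tissue was first kept in trypsin-EDTA in the cold for hours. Animals of both sexes were used in both species. Days are those of the labels, and a sample list of the study gives spiny mouse wound days that differ from them by a day or more. The labels do not tie a library to an animal, so the p-values measure the spread between libraries.

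Laboratory mouse libraries held between 19413261 and 86532134 reads on genes and spiny mouse libraries between 5669760 and 34751956, so that a floor of 3 counts was at most 0.155 and 0.529 CPM, respectively (CPM, counts scaled to the same total of reads on genes in each library). The layers matched their markers, apart from keratinocyte genes in some dermis libraries. The summed level of 14 keratinocyte genes was between 41781 and 218890 CPM in epidermis, and that of 15 fibroblast genes was between 77969 and 203534 CPM in dermis. K14-Cre-Twist1 dermis replicate 2 held 36602 CPM of the keratinocyte genes, against at most 5118 CPM in the other laboratory mouse dermis libraries. It had 12075 detected genes, the fewest of any library. Unwounded spiny mouse dermis held 8649 to 12283 CPM of the keratinocyte genes, against 824 to 1803 CPM at PWD14 and PWD21 and 4905 CPM at PWD28. Spiny mouse reads had been aligned to the laboratory mouse genome, and the counting step set aside for low alignment quality between 38.0% and 60.5% of them, against 23.3% to 34.4% in laboratory mouse libraries.

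The sequences just before the start of Fos, Jun and Atf3 are shown because these genes moved together in the spiny mouse dermis and because their promoters held short matches to the sites of ATF, CREB and AP-1 factors. Each is 100 bases long, reads 5′ to 3′ along the gene's strand on GRCm38 (RefSeq) and ends at the base before the start site, with the match in capitals. Fos lies on the plus strand (chr12:85473790-85473889) and holds TGACGT. Jun lies on the minus strand (chr4:95052223-95052322) and holds TGACATCA, an instance of TGANNTCA. Atf3 lies on the minus strand (chr1:191183334-191183433) and holds TGACGT on the opposite strand, read here as ACGTCA.
Fos: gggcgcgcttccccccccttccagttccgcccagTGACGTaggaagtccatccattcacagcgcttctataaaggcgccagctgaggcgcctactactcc
Jun: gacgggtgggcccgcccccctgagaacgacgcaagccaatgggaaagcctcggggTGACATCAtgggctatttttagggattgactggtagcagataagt
Atf3: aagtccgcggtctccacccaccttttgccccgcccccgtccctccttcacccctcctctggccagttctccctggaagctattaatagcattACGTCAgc
Over the 250 bases before the start, and on both strands, TGACGT was found in 7.29% of 27025 genes and TGANNTCA in 13.5%. Promoters of 8 of the 10 members were in the table, and Fosl1 and Egr1 were not. Of these 8, Fos and Atf3 held TGACGT, Jun and Jund held TGANNTCA, and Fos held TATAAA, as 14.3% of genes did. Within these 250 bases, none held the AP-1 site TGANTCA (7.82% of genes), the CREB site TGACGTCA (1.77%), which contains TGACGT and is an instance of TGANNTCA, or the CArG box (1.62%). Bases further upstream were not searched, so sites there would have been missed. Fosb, which fell with Fos, Jun and Atf3 in the spiny mouse dermis at PWD14, held none of the motifs searched. Egr1 fell too and was not searched, and Jund, which held TGANNTCA, was not called there. A match of letters is a description and not a bound site.

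The members' levels were first set side by side in both species. Fos, which encodes the c-Fos protein, ranged from 0 to 122 CPM over the 13 laboratory mouse libraries, with a median of 22.4 CPM, and from 219 to 4438 CPM over the 12 spiny mouse libraries, with a median of 2019 CPM. Junb, whose protein can restrain JUN-driven growth, ranged from 29.5 to 238 CPM in laboratory mouse libraries and from 251 to 1977 CPM in spiny mouse libraries. Jund, the most steadily expressed JUN gene in many tissues, ranged from 33.5 to 135 CPM and from 241 to 963 CPM, respectively. For these 3 of the 10 members, every spiny mouse library lay above every laboratory mouse library. Of the 14470 genes that averaged 1 CPM or more, 5.09% did so, and 4.82% lay below in every spiny mouse library. The reverse was seen for none of the members.

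**Figure D1:**
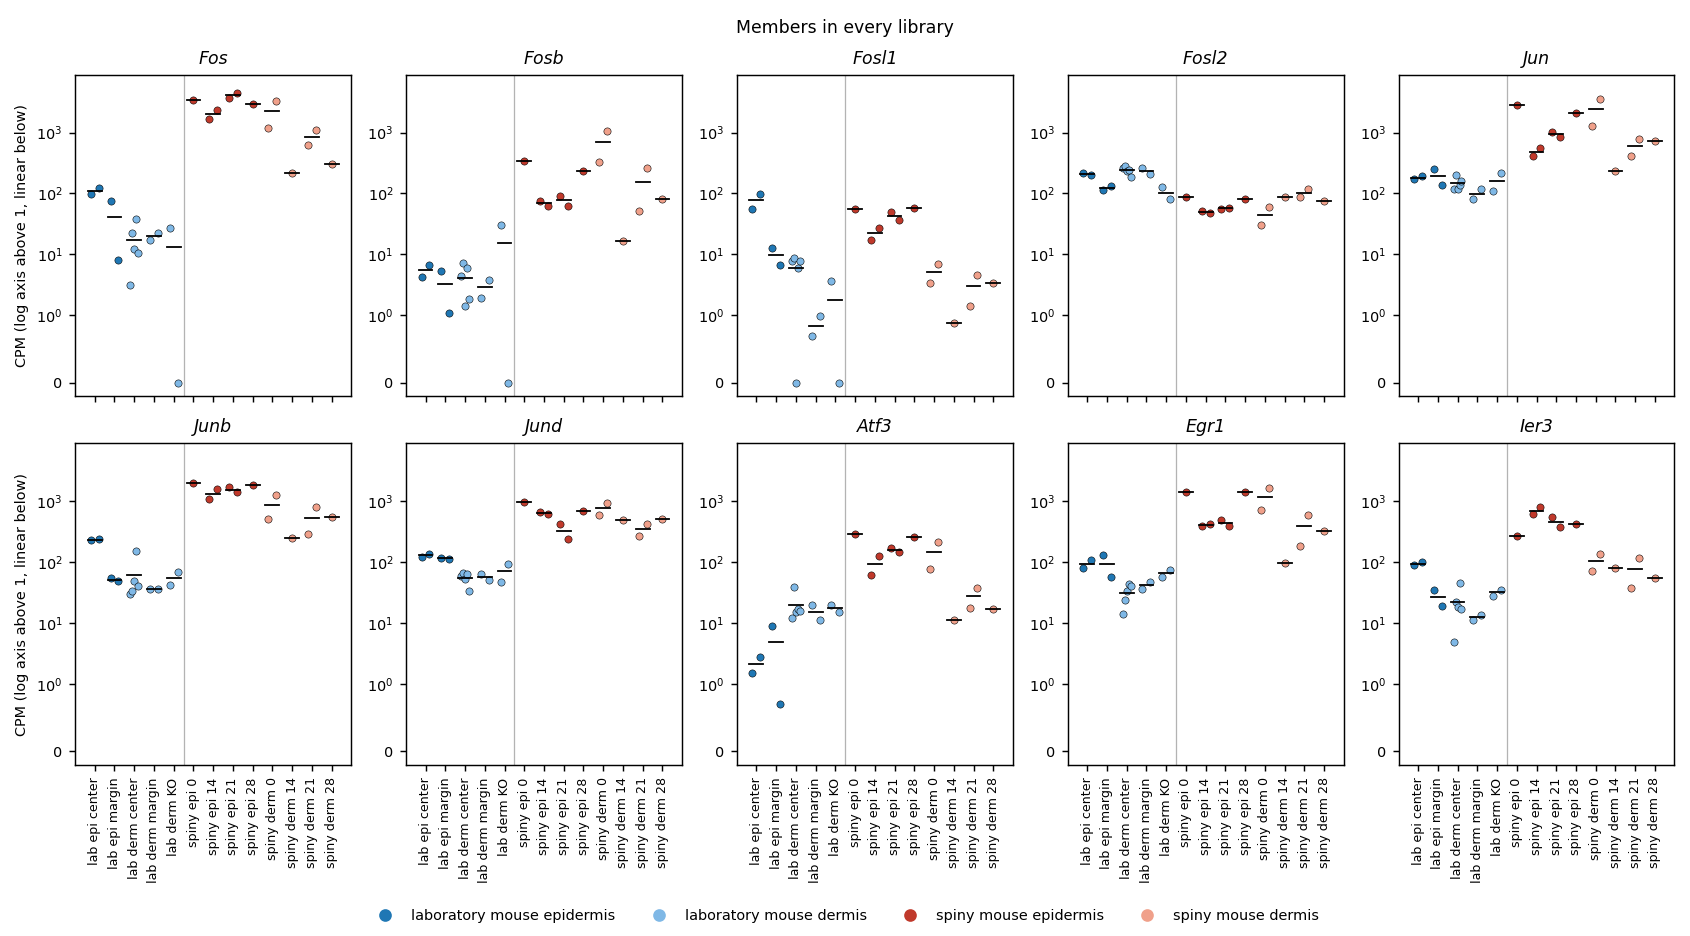
Levels (CPM, vertical axis, logarithmic above 1 and linear below) of the 10 members in each of 25 libraries, with groups on the horizontal axis (epi, epidermis; derm, dermis; KO, K14-Cre-Twist1; numbers, spiny mouse PWD), 1 point for each library and a bar at each group mean. Every spiny mouse library lies above every laboratory mouse library for Fos, Junb and Jund.

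The other members overlapped between the species. Jun, the c-Jun gene, ranged from 79.7 to 248 CPM in laboratory mouse and from 231 to 3566 CPM in spiny mouse libraries. Egr1 ranged from 14.3 to 132 CPM and from 96.4 to 1678 CPM, and Atf3, a stress-induced repressor and activator, from 0.693 to 39.4 CPM and from 11.1 to 286 CPM. Fosl2, which encodes Fra-2, was the only member with a lower median in the spiny mouse, with a median of 207 CPM in laboratory mouse libraries and 67.6 CPM in spiny mouse libraries. Species, age, layer separation, strandedness of the library and alignment to another species' genome differed together, and their parts in these levels cannot be told apart.

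The make-up of the FOS family was set out per length of exon, as CPM per kilobase. Fos held between 80.6% and 97.9% of the summed FOS family level in spiny mouse libraries and between 0% and 57.9% in laboratory mouse libraries, so the ranges did not overlap. Fosl2 held between 46.1% and 100% in laboratory mouse dermis and between 0.411% and 10.9% in spiny mouse libraries. Fosl1, which encodes Fra-1 and is typical of migrating epithelium, reached 36.7% in laboratory mouse epidermis and at most 11.1% in its dermis. Exons of Fosl1 overlap Ccdc85b on the opposite strand, and the spiny mouse libraries were not stranded, so reads of the pair could not be told apart there.

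The JUN family was more evenly divided. Junb held between 42.7% and 65.5% of the family level in spiny mouse epidermis, and between 27.2% and 46.6% in spiny mouse dermis. Laboratory mouse libraries ranged from 17.0% to 49.9% in epidermis and from 15.1% to 50.5% in dermis. The 2 laboratory mouse epidermis libraries of the wound center held more of Junb than the 2 of the margin in this plot of family shares. Lengths were those of laboratory mouse genes in both species.

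**Figure D2:**
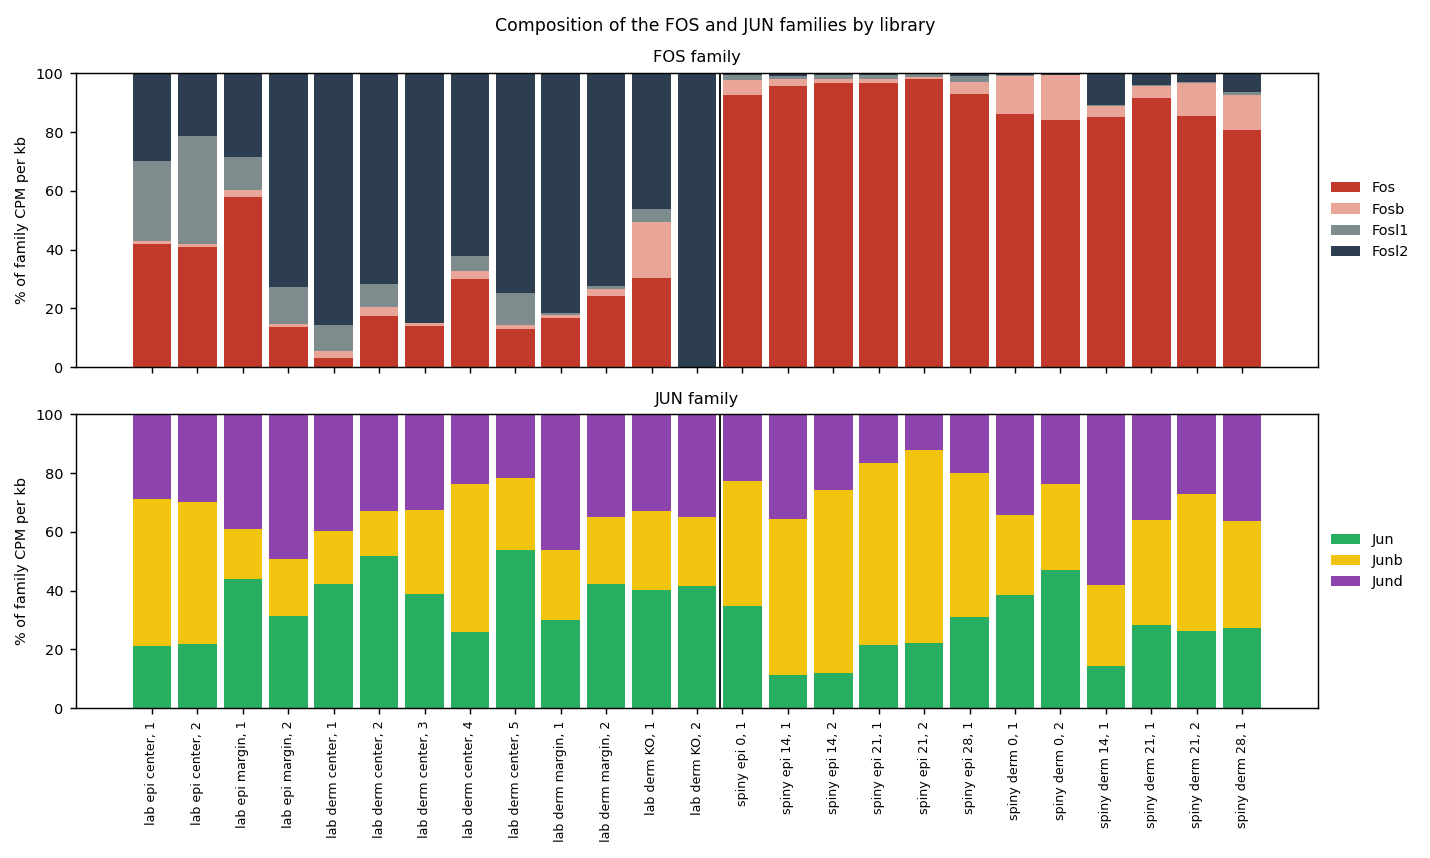
Share of each gene in the summed level (CPM per kilobase of exon, in percent, vertical axis) of the FOS family (upper panel) and the JUN family (lower panel), 1 stacked bar for each library, with laboratory mouse libraries left of the line and spiny mouse libraries right of it. Fos makes up 80.6% or more of the FOS family in the spiny mouse libraries and 57.9% or less in the laboratory mouse libraries.

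Wound center and margin of the laboratory mouse epidermis were compared first, since new follicles form in the center. Junb was higher in the center, at 232 and 238 CPM, than in the margin, at 54.5 and 48.4 CPM. The centers lay 4 to 5 times above the margins, and the members of each pair were close. The log2 fold change was 2.09 ± 0.22 (SE, 2 against 2 libraries) with an FDR of 0.0367 by edgeR's quasi-likelihood test. Junb was the 1 member called among 10, against 1.24% of the 14165 genes tested, 0.882% higher and 0.36% lower.

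Several other members were also higher in the center without passing the threshold. Fosl1 was at 56.3 and 97.2 CPM in the center and at 12.8 and 6.58 CPM in the margin, with a log2 fold change of 2.93 ± 0.48 and an FDR of 0.0583. Ier3, which encodes a protein that modulates survival signalling, was at 89.6 and 98.7 CPM in the center and at 34.9 and 19.2 CPM in the margin (log2 fold change 1.70 ± 0.36, FDR 0.0896). Fosl2 was at 218 and 198 CPM in the center and at 112 and 134 CPM in the margin (0.65 ± 0.20, FDR 0.143). The 2 groups did not overlap for these genes, but the share of all genes separated in this way was not counted, so this adds no support. Fosb (0.87 ± 0.79, FDR 0.534), Jund (0.06 ± 0.20, FDR 0.868) and Jun (-0.21 ± 0.34, FDR 0.741) did not pass the threshold either.

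The margin libraries differed from each other in the fast-responding members. Fos was at 73.7 CPM in margin replicate 1 and at 8.10 CPM in margin replicate 2, against 98.5 and 122 CPM in the center (1.31 ± 0.92, FDR 0.42). Egr1 was at 132 and 57.0 CPM in the margin, and the center libraries lay between them, at 79.9 and 107 CPM (-0.14 ± 0.45, FDR 0.871). Atf3 was at 8.84 and 0.693 CPM in the margin and at 1.502 and 2.71 CPM in the center (-1.08 ± 1.17, FDR 0.601). The fold changes moved with single libraries. Leaving out a library leaves 1 in its group, which is then assumed to vary like the 2 libraries of the other group. Over these fits the log2 fold change of Junb ranged from 1.96 to 2.25 and that of Fosl1 from 2.44 to 3.51. Fos ranged from 0.43 to 3.73, Egr1 from -0.65 to 0.68 and Atf3 from -2.26 to 1.53. The call of Junb was lost without either center library. Junb also missed the threshold with the quasi-likelihood estimate of edgeR 3, at an FDR of 0.0687, and with DESeq2 3 members were called, Junb, Fosl1 and Ier3.

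Markers of other cells moved with this comparison. The summed level of the 15 fibroblast genes was 6171 to 7506 CPM in center epidermis and 1108 to 2870 CPM in margin epidermis, and 3 of the 15 were called higher. The 8 endothelial genes summed to 25.5 to 36.3 CPM in the center and 1.68 to 6.69 CPM in the margin, with 0 called. The adipocyte list summed to 430 to 554 CPM in the center and 35.5 to 66.9 CPM in the margin, and the 1 gene tested was called higher (3.16). The neutrophil list summed to 254 to 405 CPM and 41.3 to 111 CPM, with 0 of 4 genes tested called. The part of these cells in the difference of Junb was not tested. In bulk tissue, a change in the number of cells of a type and a change of RNA per cell cannot be told apart.

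Genes around the members behaved as follows in the epidermis. Of 22 other immediate early effector genes tested, 2 were higher in the center and 0 lower, namely Cyr61 (log2 fold change 3.17, FDR 0.037), a secreted matrix protein, and Arc (5.69, FDR 0.037). Of 11 other immediate early transcription factor genes, 1 was higher, Csrnp1 (1.82, FDR 0.046). Of 16 genes often listed as AP-1 targets, 3 were higher and 0 lower, among them Mmp9 (2.31, FDR 0.037), a gelatinase. None of the 10 other basic leucine zipper genes, the 17 genes of the upstream MAP kinase pathways or the 10 heat shock genes tested was called. The median log2 fold change was 0.76 over the members and -0.02 over all genes tested.

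In the dermis of the same stage, no member passed the threshold between center and margin. The comparison used wild-type center replicates 1 and 2 and both margin libraries, and 0.85% of 14698 genes were called by edgeR (0.116% higher and 0.735% lower). At an unadjusted p under 0.05 there were 3 members, Fosl1, Jun and Egr1, against 15.8% of genes, and DESeq2 called 1, Fosl1 (FDR 0.00888). Fosl1 was at 7.66 and 8.65 CPM in the center and at 0.689 and 0.991 CPM in the margin (log2 fold change 3.36 ± 0.94, FDR 0.144). Jun was at 120 and 201 CPM in the center and at 79.7 and 116 CPM in the margin (0.80 ± 0.26, FDR 0.217). Egr1 was at 14.3 and 24.1 CPM in the center and at 36.1 and 47.4 CPM in the margin (-1.05 ± 0.37, FDR 0.227). The remaining members were Fosb (1.09 ± 0.83, FDR 0.596), Atf3 (0.78 ± 0.56, FDR 0.574), Fosl2 (0.32 ± 0.20, FDR 0.5), Jund (0.21 ± 0.26, FDR 0.775), Ier3 (0.20 ± 0.65, FDR 0.933) and Fos (-0.59 ± 0.65, FDR 0.747).

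Markers of keratinocytes differed between these dermis samples. The list summed to at most 810 CPM in the center and to 2636 and 5118 CPM in the margin, with 9 of 14 genes called lower in the center, and its part in the values of Egr1 was not tested. Of the AP-1 targets, Lor, a cornified envelope gene of keratinocytes, was lower in the center (-5.72, FDR 0.0042).

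Junb did not show the epidermal pattern in the dermis. It was at 29.5 and 33.0 CPM in the center and at 35.7 and 35.8 CPM in the margin, with a log2 fold change of -0.11 ± 0.31 and an FDR of 0.916. An interaction over 8 libraries compared the layers in this respect. The center-margin fold change was larger in epidermis than in dermis, by 2.34 ± 0.32 on the log2 scale (FDR 0.00372). Junb was the 1 member called, against 3.48% of 15531 genes (3.34% higher and 0.135% lower). It was called with every alternative setting tried and with each of the 8 libraries left out in turn. Without epidermis margin replicate 1 Fos was called as well. For Fosl1, which was higher in the center of both layers without a call, the interaction was -0.30 ± 0.80 (FDR 0.933). The other members' interactions ranged from -1.77 ± 1.32 (Atf3) to 2.04 ± 1.22 (Fos).

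**Figure D3:**
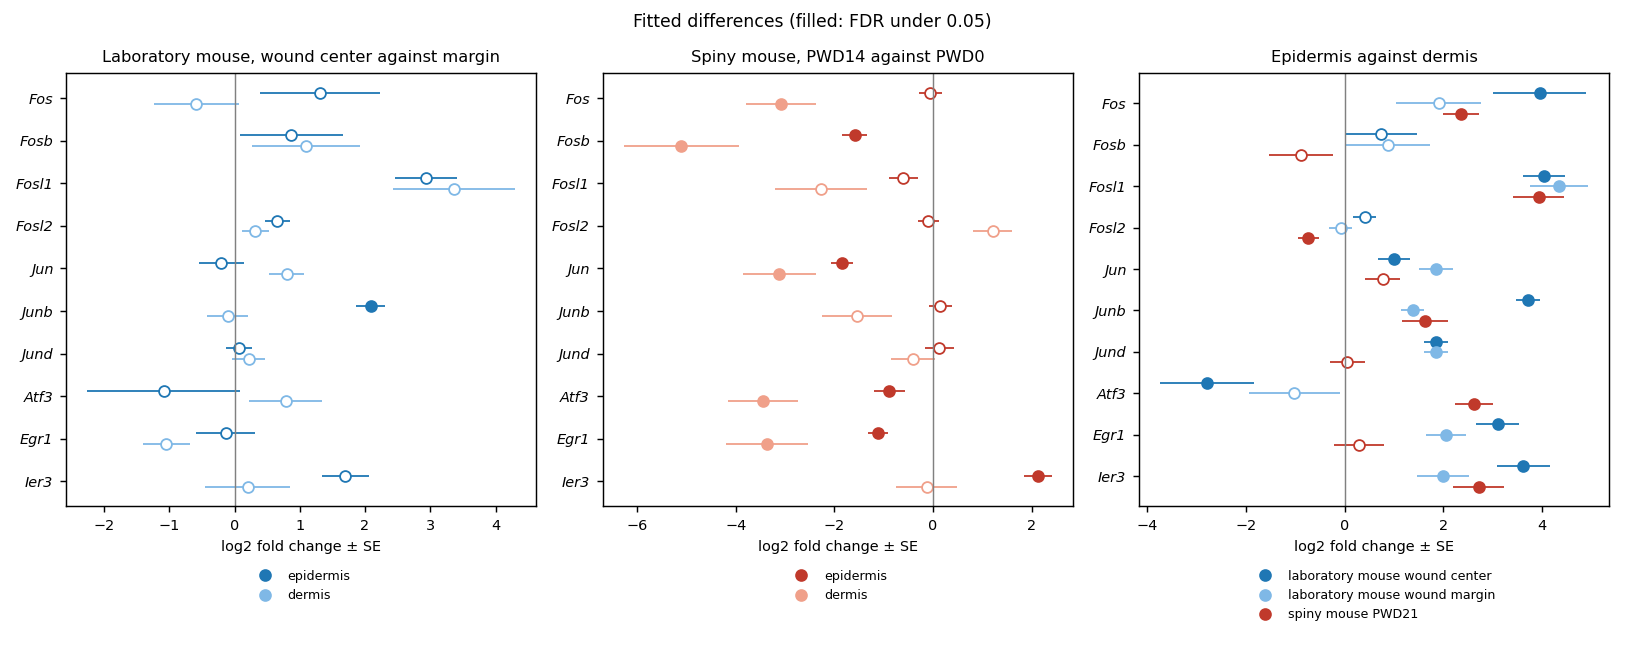
Log2 fold changes (horizontal axis) of the 10 members with their SE, filled where the FDR was under 0.05 and open otherwise, for wound center against margin in the laboratory mouse (left), PWD14 against PWD0 in the spiny mouse (middle) and epidermis against dermis (right). Junb of the laboratory mouse epidermis is the filled point of the left panel, and 5 dermal members are filled at negative values in the middle panel.

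Epidermis and dermis were then compared at each site of the laboratory mouse wound. Epidermis was read paired-end and dermis single-end, so layer and read type cannot be told apart in these comparisons. In the wound center, 7 members were higher in epidermis and 1 in dermis, and 50.1% of 15531 genes were called (25.9% higher and 24.3% lower). Fos was at 98.5 and 122 CPM in epidermis and at 3.17 and 22.5 CPM in dermis (log2 fold change 3.95 ± 0.93, FDR 0.00458). The largest log2 fold changes after that of Fosl1, 4.04 ± 0.43 (FDR 1.69e-05), and of Fos were those of Junb, 3.72 ± 0.25 (FDR 9.84e-07), and Ier3, 3.62 ± 0.54 (FDR 0.000226). Egr1 (3.10 ± 0.43, FDR 0.00013), Jund (1.85 ± 0.24, FDR 9.04e-05) and Jun (0.998 ± 0.33, FDR 0.0278) were higher in epidermis too. Jun was not called with RLE size factors, with library size alone, with DESeq2 or with the edgeR 3 estimate, with log2 fold changes from 0.19 to 0.998, nor without either epidermis center library or dermis center replicate 1.

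Atf3 went the other way. It was at 1.502 and 2.71 CPM in center epidermis and at 11.9 and 39.4 CPM in center dermis, with a log2 fold change of -2.79 ± 0.95 and an FDR of 0.0294. Without dermis center replicate 2, the library with the high value, the log2 fold change was -1.73 and the FDR was 0.258. It was also not called with the edgeR 3 estimate (FDR 0.0802), without either epidermis center library (FDR 0.15 and 0.0715) or without either dermis margin library (FDR 0.0543 and 0.0531). Fosb (0.74 ± 0.73, FDR 0.419) and Fosl2 (0.40 ± 0.23, FDR 0.174) did not pass the threshold. In the absence of TMM factors the sign of both was negative.

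In the wound margin, 6 members were higher in epidermis and 0 lower, and 49.4% of genes were called (23.0% higher and 26.4% lower). They were Fosl1 (log2 fold change 4.34 ± 0.59, FDR 0.000102), Egr1 (2.04 ± 0.41, FDR 0.0016), Ier3 (1.99 ± 0.52, FDR 0.00883), Jun (1.85 ± 0.34, FDR 0.00104), Jund (1.85 ± 0.24, FDR 9.6e-05) and Junb (1.37 ± 0.23, FDR 0.000515). Fos, at 73.7 and 8.10 CPM in epidermis and at 17.1 and 22.4 CPM in dermis, did not pass the threshold (1.91 ± 0.87, FDR 0.0891). Its groups overlapped. Fosb (0.87 ± 0.86, FDR 0.425), Atf3 (-1.02 ± 0.92, FDR 0.381) and Fosl2 (-0.08 ± 0.23, FDR 0.799) did not pass it either. Junb, Ier3 and Fosl2 depended on the scaling here, where TMM factors were 0.743 and 0.779 for margin epidermis and 1.33 and 1.41 for margin dermis. With library size alone Junb (0.52, FDR 0.0728) and Ier3 (1.12, FDR 0.0923) were not called and Fosl2 was called lower (-0.92, FDR 0.00605). The call of Ier3 was also lost without either dermis margin library and without epidermis margin replicate 1, at FDRs of 0.0525 to 0.0657. The median over all genes moved by -0.74 (center) and -0.84 (margin) on the log2 scale without TMM factors.

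The other immediate early genes were counted in the same comparisons. In the wound center 6 of 11 transcription factor genes were higher in epidermis and 1 lower, and 12 of 22 effector genes were higher and 2 lower. Klf4, a factor of the epidermal barrier (log2 fold change 5.33), Egr3 (4.37) and Klf10 (2.18) were higher and Klf2, an endothelial factor, was lower (-3.74). In the margin, the counts were 5 higher and 3 lower of 11, and 10 higher and 5 lower of 22. Without TMM factors the median log2 fold change in the margin went from 0.46 to -0.38 for the transcription factor genes and from 0.84 to -0.005 for the effector genes. Of 13 other basic leucine zipper genes, 5 were higher and 3 lower in the center, and 5 higher and 4 lower in the margin.

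The K14-Cre-Twist1 dermis was compared with wild-type center replicates 3 to 5 to ask what epidermal loss of Twist1 changes in the dermis below. Twist1 was at 73.4 and 44.0 CPM in the K14-Cre-Twist1 dermis and at 57.7, 36.3 and 105 CPM in the wild type, and these values do not check a deletion made in the epidermis. No member was called, and 0.0565% of 14163 genes were called by edgeR (0.0494% higher and 0.00706% lower). At an unadjusted p under 0.05 there were 2 members, Fosl2 and Egr1, against 11.5% of genes, and DESeq2 called 1, Fosl2 (FDR 0.0153).

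Fosl2 was at 126 and 80.7 CPM in K14-Cre-Twist1 dermis and at 231, 246 and 185 CPM in wild-type dermis (log2 fold change -1.09 ± 0.28, FDR 0.27). Egr1 was at 57.1 and 75.4 CPM and at 33.4, 42.9 and 40.01 CPM, respectively (0.77 ± 0.28, FDR 0.372). The groups did not overlap for either gene, and the share of all genes for which this held was not counted. K14-Cre-Twist1 replicate 2, the library with keratinocyte genes, had the lower Fosl2 and the higher Egr1 value.

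That library also had 0 counts of Fos, Fosb and Fosl1. Replicate 1 was at 26.6 CPM of Fos, 30.3 CPM of Fosb and 3.58 CPM of Fosl1, and the wild-type dermis ranged from 10.3 to 38.3 CPM of Fos, 1.40 to 5.90 CPM of Fosb and 0 to 7.86 CPM of Fosl1. Fosb of replicate 1 was the highest among the 13 laboratory mouse libraries. With both replicates the log2 fold changes were 2.45 ± 1.31 for Fosb (FDR 0.492), -0.54 ± 1.09 for Fos (FDR 0.852) and -1.33 ± 1.58 for Fosl1 (FDR 0.739). Leaving out replicate 1 set the wild type against 0 counts of Fos, and the log2 fold change of Fosl2 was then -1.49. Over all fits that left out a library, that of Fosl2 ranged from -1.49 to -0.77. Jund (0.49 ± 0.38, FDR 0.6), Ier3 (0.26 ± 0.49, FDR 0.843), Jun (0.22 ± 0.30, FDR 0.775), Atf3 (0.14 ± 0.47, FDR 0.912) and Junb (-0.52 ± 0.55, FDR 0.704) did not pass the threshold. None of the other immediate early genes, AP-1 targets, upstream genes or heat shock genes was called.

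The spiny mouse epidermis was compared between PWD14 and unwounded skin at PWD0, in a fit over the 6 epidermis libraries. At PWD14, 4 members were lower and 1 higher than at PWD0, against 48.8% of 14336 genes called (22.7% higher and 26.1% lower). PWD0 had 1 library, which is assumed in the test to vary like the others. Jun was at 2835 CPM at PWD0, at 412 and 550 CPM at PWD14, at 1030 and 852 CPM at PWD21 and at 2089 CPM at PWD28. Its log2 fold change from PWD0 to PWD14 was -1.84 ± 0.22 (FDR 8.09e-05).

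Egr1, Fosb and Atf3 followed a course like that of Jun. Egr1 was at 1434 CPM at PWD0, at 393 and 416 CPM at PWD14, at 493.0 and 395 CPM at PWD21 and at 1419 CPM at PWD28 (-1.11 ± 0.20, FDR 0.00117). Fosb was at 342 CPM, at 75.6 and 62.2 CPM, at 91.5 and 62.7 CPM and at 230 CPM on the same days (-1.59 ± 0.25, FDR 0.000526). Atf3 was at 286 CPM, at 61.1 and 128 CPM, at 169 and 146 CPM and at 256 CPM (-0.89 ± 0.32, FDR 0.0409). The PWD28 library had levels of these genes close to the PWD0 library, and single libraries give no measure of their spread. Atf3 missed the threshold with RLE size factors (FDR 0.0525) and the edgeR 3 estimate (FDR 0.0548), and without PWD14 replicate 1 (-0.50, FDR 0.0739).

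Ier3 had the opposite course. It was at 266 CPM at PWD0, at 618 and 793 CPM at PWD14, at 548.2 and 379 CPM at PWD21 and at 430 CPM at PWD28, with a log2 fold change from PWD0 to PWD14 of 2.13 ± 0.28 (FDR 0.00016). Fos was at 3437 CPM at PWD0 and at 1676 and 2363 CPM at PWD14, and its fitted log2 fold change was -0.05 ± 0.23 (FDR 0.869). The TMM factors of PWD14 were 0.720 and 0.757 and that of PWD0 was 1.22. With library size alone, the median over all genes moved by -0.72, Fos fell by 0.77 (FDR 0.0183), and 7 members were called lower and 1 higher. Junb (0.15 ± 0.24, FDR 0.627) and Jund (0.13 ± 0.29, FDR 0.731) changed sign with that scaling without a call. Fosl2 (-0.10 ± 0.21, FDR 0.729) and Fosl1 (-0.60 ± 0.30, FDR 0.118) did not pass the threshold. Of 12 other immediate early transcription factor genes, 1 was higher (Klf6, 2.19) and 3 lower, among them Nr4a3 (-2.11) and Nr4a1 (-1.34), and of 22 effector genes 8 were higher and 3 lower.

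Between PWD14 and PWD21, 2 members of the spiny mouse epidermis were higher at PWD14 and 0 lower, and 46.6% of 12889 genes were called (23.4% higher and 23.2% lower). Jund was at 672 and 607 CPM at PWD14 and at 416 and 241 CPM at PWD21 (log2 fold change 1.51 ± 0.24, FDR 0.000561). Ier3 was higher by 1.15 ± 0.20 (FDR 0.00104). Fos was at 3740 and 4438 CPM at PWD21, above both PWD14 libraries, with a log2 fold change of -0.47 ± 0.18 and an FDR of 0.0564. Fos was called lower at PWD14 by DESeq2 (FDR 0.0386), without the low-count filter (-0.53, FDR 0.027) and with library size alone (-1.02, FDR 0.00121). With library size alone Fosl1, Jun and Atf3 were called lower as well, and Jund and Ier3 were still called higher. Over the fits that left out a library, the log2 fold change of Jund ranged from 1.14 to 1.96. That of Ier3 ranged from 0.88 to 1.45 and that of Fos from -0.70 to -0.28. Egr1 (0.42 ± 0.17, FDR 0.0604), Fosb (0.38 ± 0.22, FDR 0.171), Fosl2 (0.36 ± 0.17, FDR 0.107) and Junb (0.33 ± 0.19, FDR 0.177) had positive values that turned negative with library size alone. Jun (-0.42 ± 0.18, FDR 0.0712), Fosl1 (-0.41 ± 0.24, FDR 0.192) and Atf3 (-0.19 ± 0.26, FDR 0.57) were negative.

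Markers of other cells also differed between these days. The neutrophil list summed to 2503 and 1512 CPM at PWD14, nearly all of it S100a9, and to 408 and 181 CPM at PWD21. The macrophage list had 5 of 10 genes higher at PWD14 and 1 lower, and the erythroid list 3 of 4 higher. The adipocyte list summed to 5160 to 6303 CPM at PWD14 and 1053 to 1350 CPM at PWD21, with 1 of 2 genes tested called in each direction. The part of these cells in the values of Ier3 and Jund was not tested.

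Genes of the response around the members moved in both directions in the epidermis between PWD14 and PWD21. Of 22 other effector genes, 9 were higher at PWD14 and 1 lower, with Trib1 (log2 fold change 1.72), Ier2 (1.55) and Ier5l (1.53) the largest. Klf6, a zinc finger factor of the injury response, was higher (2.18), and Cyr61 (-0.77) and Klf10 (-0.53) were lower. Of 17 AP-1 target genes, 10 were higher and 2 lower. Of 17 upstream genes, 4 were higher, including the MAP kinase kinase gene Map2k2 (1.94) and Mapk3 (0.99), which encodes ERK1, and 2 lower, Mapk8 (-0.70) and Mapk14 (-0.67). The median log2 fold change was 0.35 over the members and -0.04 over all genes.

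The dermis of the spiny mouse gave the widest changes of the members over days. At PWD14, 5 members were lower than in unwounded dermis and 0 higher, in a fit over the 6 dermis libraries in which 18.5% of 15344 genes were called (7.95% higher and 10.5% lower). PWD14 dermis had 1 library. Fos was at 1198 and 3313 CPM at PWD0, at 219 CPM at PWD14, at 635 and 1088 CPM at PWD21 and at 306 CPM at PWD28. The log2 fold change from PWD0 to PWD14 was -3.08 ± 0.71 (FDR 0.0203), and the PWD0 libraries lay above all others.

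Fosb, Jun, Atf3 and Egr1 fell with Fos. Fosb was at 323 and 1080 CPM at PWD0, at 16.7 CPM at PWD14, at 50.8 and 259 CPM at PWD21 and at 81.8 CPM at PWD28 (-5.10 ± 1.16, FDR 0.0198). Jun was at 1281 and 3566 CPM, at 231 CPM, at 408 and 791 CPM and at 738 CPM on these days (-3.11 ± 0.74, FDR 0.023). Atf3 was at 78.3 and 215 CPM, at 11.1 CPM, at 17.4 and 37.8 CPM and at 17.0 CPM (-3.45 ± 0.72, FDR 0.0138). In each of these genes PWD0 replicate 2 was the higher of the pair and PWD14 was the lowest of the 6 libraries. Egr1 was at 712 and 1678 CPM at PWD0 and at 96.4 CPM at PWD14 (-3.36 ± 0.83, FDR 0.0264). Without PWD21 replicate 2, which enters the fit for its spread, Jun missed the threshold at an FDR of 0.0516. Fosl1 (-2.28 ± 0.93, FDR 0.124), Junb (-1.54 ± 0.70, FDR 0.159), Jund (-0.41 ± 0.44, FDR 0.554) and Ier3 (-0.13 ± 0.61, FDR 0.905) did not pass it. DESeq2 called Junb lower (-1.55, FDR 0.0312).

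Fosl2 moved against the others in the dermis. It was at 30.0 and 59.7 CPM at PWD0, at 86.9 CPM at PWD14, at 88.2 and 117 CPM at PWD21 and at 75.5 CPM at PWD28, so that both unwounded libraries lay below the wounded ones. From PWD0 to PWD14 its log2 fold change was 1.22 ± 0.40 (FDR 0.0675), and DESeq2 called it (FDR 0.0393). From PWD0 to PWD21 (2 against 2 libraries), Fosl2 was called higher, at 1.13 ± 0.33 (FDR 0.0392). That call was lost without PWD0 replicate 1 and without either PWD21 library.

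In that comparison of PWD21 with PWD0 in dermis, 1 member was higher and 3 lower, against 26.2% of 14481 genes (12% higher and 14.2% lower). It shares the PWD0 libraries with the comparison at PWD14. Atf3 (-2.45 ± 0.50, FDR 0.00977), Jun (-2.06 ± 0.55, FDR 0.0272) and Jund (-1.22 ± 0.36, FDR 0.0395) were lower at PWD21. Jund missed the threshold without the low-count filter (-1.13, FDR 0.0508). It was at 592 and 939 CPM at PWD0 and at 270 and 424 CPM at PWD21. Fosb (-2.20 ± 0.74, FDR 0.0587), Fos (-1.43 ± 0.52, FDR 0.0746) and Egr1 (-1.65 ± 0.58, FDR 0.0679) did not pass the threshold, and DESeq2 called Fos and Egr1. Fosl1 (-0.84 ± 0.64, FDR 0.36), Junb (-0.75 ± 0.54, FDR 0.328) and Ier3 (-0.48 ± 0.49, FDR 0.491) did not pass it either. The calls depended on single libraries. Those of Jun and Jund were lost without either PWD21 library, and that of Atf3 without PWD21 replicate 1. Over the fits that left out a library, the log2 fold change ranged from -2.64 to -1.31 for Jun and from -1.61 to -0.89 for Jund. It ranged from -3.15 to -1.72 for Atf3 and from 0.83 to 1.55 for Fosl2.

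Heat shock genes were lower after wounding in the dermis. All 10 heat shock genes were lower at PWD21 than at PWD0 and 8 of 10 were lower at PWD14, with Hspa1b, an inducible HSP70 gene, at 250 and 822 CPM at PWD0, at 20.1 CPM at PWD14 and at 35.3 and 90.6 CPM at PWD21. The summed heat shock level was 1673 and 3666 CPM in the PWD0 dermis, 331 to 523 CPM at PWD14 and 21 and 1082 CPM at PWD28. Ptgs2, the inducible prostaglandin synthase, was lower at PWD14 (log2 fold change -4.19, FDR 0.0036) and at PWD21 (-2.79, FDR 0.0029). Klf4 was lower at both days (-4.07 and -2.06). Of 12 other immediate early transcription factor genes 3 were lower at PWD14 and 0 higher, and of 22 effector genes 4 were lower and 0 higher, against the 10.5% of all genes called lower. At PWD21, 3 of 11 and 5 of 22 were lower and 0 higher, against 14.2%, so that most of them were not called at either day. In epidermis the summed heat shock level was 3117 CPM at PWD0 and 2663 CPM at PWD28. Between them it was 1409 to 1770 CPM at PWD14 and 1673 to 1822 CPM at PWD21. Whether the members and the heat shock genes share a cause was not tested.

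**Figure D4:**
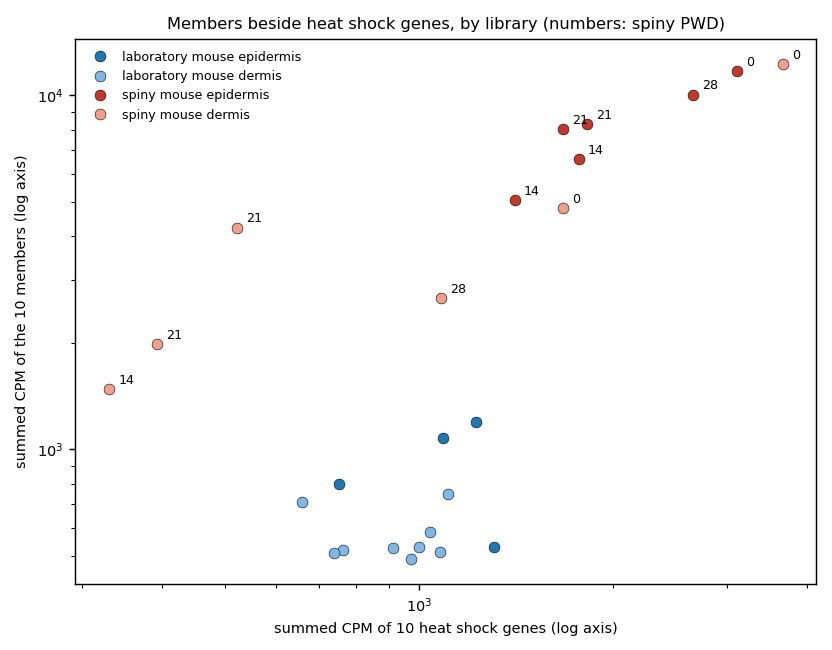
Summed CPM of the 10 members (vertical axis, logarithmic) against the summed CPM of 10 heat shock genes (horizontal axis, logarithmic), 1 point for each of 25 libraries, with spiny mouse points labelled by PWD. Spiny mouse dermis of PWD14 and PWD21 lies furthest left, at 331 to 523 CPM of heat shock genes, spiny mouse PWD0 lies at 1673 to 3666 CPM, and the laboratory mouse libraries lie below, at 490 to 1196 CPM of the members.

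Keratinocyte genes moved in the same direction. The list summed to 12283 and 8649 CPM in PWD0 dermis, against 824 to 1803 CPM at PWD14 and 21 and 4905 CPM at PWD28, and 10 of 14 were called lower at PWD14 and 11 of 14 at PWD21. The adipocyte and skeletal muscle lists were also lower after wounding, with 6 of 6 and 3 of 9 genes called at PWD14. The part of these cells in the fall of Fos, Jun and Atf3 was not tested.

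Genes that rose in the wounded dermis included targets of AP-1. Of 17 target genes, 6 were higher at PWD14 and 1 lower than at PWD0, and 4 were higher and 3 lower at PWD21. Mmp13, a collagenase, was higher by 7.42 at PWD14 and 5.55 at PWD21 on the log2 scale (FDR 0.0073 and 0.012). Mmp9 was higher by 5.90 and 3.25 (FDR 0.00041 and 0.0017), and Spp1, osteopontin, by 5.46 and 2.75 (FDR 0.0037 and 0.028). Il6 was lower by -6.04 and -3.59. Among other basic leucine zipper genes, Maf was higher on both days (2.17 and 1.95) and Maff and Mafk were lower.

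The courses of epidermis and dermis were set against each other by an interaction over the 12 spiny mouse libraries, a test chosen after the values were seen. Between PWD0 and PWD14 the change of Fos differed by 3.03 ± 0.80 on the log2 scale (FDR 0.0273), being more negative in dermis, and Fos was the 1 member called against 17.3% of 15942 genes (9.45% higher and 7.83% lower). Neither PWD14 epidermis library could be left out without losing this call, at FDRs of 0.0548 and 0.0809. Between PWD0 and PWD21, Fosl2 differed by -1.62 ± 0.44 (FDR 0.0234), the 1 member called against 25% of genes (12.3% higher and 12.7% lower). Over the other members the values ranged from -1.31 ± 0.48 (Fosl2) to 3.52 ± 1.23 (Fosb) at PWD14 and from -0.20 ± 0.53 (Jund) to 1.82 ± 0.70 (Fos) at PWD21. Fosl2 missed the threshold without either PWD21 epidermis library, and without PWD21 dermis replicate 2, at FDRs of 0.0705 to 0.0727.

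The layers were compared directly at PWD21, the day with 2 libraries of each. In epidermis 5 members were higher and 1 lower than in dermis, against 62.9% of 14966 genes called (29.4% higher and 33.5% lower). Fosl1 was at 48.7 and 36.9 CPM in epidermis and at 1.41 and 4.52 CPM in dermis (log2 fold change 3.93 ± 0.52, FDR 0.000462). Ier3 (2.71 ± 0.52, FDR 0.00286), Atf3 (2.62 ± 0.38, FDR 0.000749), Fos (2.35 ± 0.36, FDR 0.00101) and Junb (1.63 ± 0.47, FDR 0.0177) were higher in epidermis as well. Fosl2 was lower, at 55.7 and 57.7 CPM in epidermis and at 88.2 and 117 CPM in dermis (-0.74 ± 0.22, FDR 0.0199), and it missed the threshold without either epidermis library. Jun (0.77 ± 0.35, FDR 0.0931), Egr1 (0.29 ± 0.50, FDR 0.636), Jund (0.05 ± 0.35, FDR 0.906) and Fosb (-0.89 ± 0.65, FDR 0.262) did not pass it. Of 11 other immediate early transcription factor genes 6 were higher in epidermis and 1 lower, Klf2 (-4.25), and of 22 effector genes 12 were higher and 2 lower. Atf3 was thus higher in the epidermis of the PWD21 spiny mouse and higher in the dermis of the PWD14 laboratory mouse wound center, a difference between species that was not tested.

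The members varied together to different degrees. Over the 12 spiny mouse libraries, Pearson's r of log2(CPM + 1) had a median of 0.573 over the 45 pairs of members, from -0.30 for Fosl2 and Atf3 to 0.949 for Jun and Egr1. Over the 13 laboratory mouse libraries, the median was 0.304, from -0.687 for Jund and Atf3 to 0.894 for Junb and Ier3. Libraries of 2 layers and several days or sites enter each value, so these coefficients describe the libraries and are not independent of layer.

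Genes outside the members whose levels were most like those of Fos and Junb were found in the same way, for genes averaging 5 CPM or more over these libraries. In the spiny mouse (11022 genes, 12 libraries) those nearest to Fos were Slc38a2 (r = 0.963), Elovl4 (0.953), Gdpd2 (0.950), Dusp1 (0.940) and Cyp4b1 (0.928). Those nearest to Junb were Rel (0.970), Plk3 (0.962), Errfi1 (0.959), Ppp1r15a (0.957) and Rdh12 (0.957). In the laboratory mouse (11683 genes, 13 libraries) Fos was nearest to Mtf1 (0.895), Ank3 (0.885), Fam167a (0.877), Srxn1 (0.863) and Dnaaf5 (0.856). Among the genes nearest to Junb were Srebf2 (0.929), Smox (0.929), Zdhhc5 (0.907) and Map7d1 (0.904).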

How the data were processed

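RNA-seq counts of 25 libraries were used. Per the labels and the methods, the authors aligned reads of 75 bases to mm10 with STAR (2.4.1d in the submitters' notes, another version in the methods), counted them per RefSeq gene with HTSeq 0.6.0 and deposited raw counts without normalization. Laboratory mouse libraries were stranded (paired-end epidermis, single-end dermis), spiny mouse libraries single-end and unstranded. The punch was 3 mm wide in the methods and 5 mm in the results. Summary lines of the counting were left out.

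Levels are CPM over all gene rows, without TMM factors. Tests used edgeR 4.0.16 in R 4.3.3 (TMM, filterByExpr, quasi-likelihood F test, Benjamini-Hochberg over all genes tested, threshold 0.05, prior count 0.125) and were tested on simulated data. SEs were taken as |log2 fold change| divided by F to the power 0.5. Wild-type center dermis libraries were divided by the library numbers in the labels. Alternatives were RLE, library size alone, DESeq2 1.42.0, no low-count filter, leaving out each library, pooling libraries and, added after the data were seen, the edgeR 3 estimate and 2 interactions.

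Members and lists were chosen with earlier results of these data known. All 10 members are given in each comparison. From the other lists at most 3 genes for each direction were named, those with the largest fold change among genes with an FDR under 0.05 and a mean of at least 1 CPM, and not all such genes are given. Some genes that meet these rules are not reported here. Hspa1b, S100a9 and Twist1 were named for their level. The 3-count floor covers counting error only, whereas the SEs, taken from the F test, include the spread between libraries. Python 3.11.15 with pandas 2.3.3 and matplotlib 3.10.9 was used.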

Additional observations from a re-analysis of the deposited data

Results flagged for a closer look

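Among the 5 wild-type wound center dermis libraries of the laboratory mouse, replicate 4 held 149 CPM of Junb and the others 29.5 to 49.2 CPM, and replicate 2 held 39.4 CPM of Atf3 and the others 11.9 to 17.0 CPM. Both lay further from the rest than Dixon's 95% limit for 5 libraries allows, a limit that chance passes in about 1 of 20 groups, and 10 members were examined. The 5 libraries join 2 sets that the main tests kept apart, replicates 1 and 2 and replicates 3 to 5. Junb averaged 31.2 CPM in the first set and 79.9 CPM in the second, and the limit assumes libraries of 1 kind. Replicate 4 also held the highest summed level of the neutrophil list, 872 CPM, and its part in the Junb value was not tested.

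The center-margin contrast of Junb differed between epidermis and dermis by 2.34 on the log2 scale. The PWD14 against PWD0 contrast of Fos in the spiny mouse differed between the layers by 3.03, and the PWD21 against PWD0 contrast of Fosl2 by -1.62, both by interactions added after the values were seen.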

How the results depend on the processing

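Under 12 alternatives that kept every library, the count of members called lay outside 1.5 times the reported one, and under 59 it lay within, with smaller changes (5 to 7 and 3 to 6 in spiny mouse dermis at PWD14 and PWD21, 6 to 8 and 5 to 6 between the laboratory mouse layers in center and margin). For center against margin in laboratory mouse epidermis the count was 3 with DESeq2, 2 without the low-count filter and 0 with the edgeR 3 estimate. With DESeq2 it was 1 for center against margin in dermis and 1 for K14-Cre-Twist1 against wild type. For spiny mouse epidermis, PWD14 against PWD21 gave 6 with library size alone and 4 without the filter, and PWD14 against PWD0 gave 8 with library size alone. For the interaction of Fos at PWD14 the count was 2 with library size alone, 4 with DESeq2 and 3 without the filter, and for that at PWD21 it was 2 with DESeq2.

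Leaving out a library moved the counts over all genes as well as those of members, so counts from such fits are not given. For 3 member fold changes the direction reversed with a call, all on leaving out a library. In center against margin epidermis, Jun ranged from -0.59 to 0.36 and Egr1 from -0.65 to 0.68, the upper values being those without margin replicate 1. Fosb between the layers at PWD21 ranged from -1.67 to 0.77, the upper value without dermis replicate 2. Under the other alternatives, 671 member fold changes stayed on their side of the threshold, 28 gained a call and 11 lost it.

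Counts over all genes differed more. In laboratory mouse epidermis 176 genes were called, against 1544 with DESeq2 and 0 with the edgeR 3 estimate. In dermis, center against margin gave 125, against 736 and 54, 323 with all 5 wild-type libraries and 5 in a fit of all dermis libraries. K14-Cre-Twist1 gave 8, against 520 and 2, 190 and 75. The laboratory mouse interaction gave 540, against 1187 with DESeq2. With library size alone, the split of higher against lower moved to 1335 and 5721 from 3011 and 2991 (PWD14 against PWD21), to 1661 and 6361 from 3255 and 3737 (PWD14 against PWD0, epidermis), to 874 and 1988 from 1220 and 1618 (the same, dermis), to 2260 and 6050 from 4016 and 3770 (layers, center), to 1790 and 6795 from 3577 and 4101 (layers, margin) and, in the interactions, to 1003 and 2171 from 1507 and 1248 at PWD14 and to 1447 and 2386 from 1959 and 2019 at PWD21. No paired analysis was possible because the labels give the groups no shared replicate numbers. Groups of 1 or 2 libraries limit every test, and the cause of these differences was not tested.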
